A study of Mus musculus with 2 samples.

Results

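The genes described here bear names of histone methyltransferases and demethylases of the mouse, without Kmt2d and 3 others. They were taken by name from the authors' gene table: every symbol that begins with Kdm, Kmt, Setd, Ehmt, Ezh, Nsd, Suv or Prmt, together with Ash1l, Eed, Suz12, Dot1l and Whsc1, and without Kmt2d, Kmt2c, Kdm6a and Kdm5d. The rule found 53 of the 24319 named genes in the table. It also takes in Nsdhl, which encodes an enzyme of cholesterol synthesis and has no part in histone methylation, so 52 members remain. Some of the 52, such as Setd3 and Prmt10, encode methyltransferases described below for proteins other than histones. By name and family, 28 of the 52 were grouped as lysine methyltransferases or core subunits of their complexes, 16 as lysine demethylases and 8 as arginine methyltransferases.

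Expression was read by RNA sequencing of nuclei sorted from the dentate gyrus of adult mice aged 8 weeks, in 1 library of wild-type and 1 library of Kmt2d +/mut animals, the latter carrying 1 mutant allele that the series' design text writes as Kmt2d+/Bgeo. Both groups had received 150 mg/kg of EdU, a thymidine analogue built into replicating DNA, 16 h before dissection, and only nuclei with EdU were kept. Each library pooled 500 nuclei from 3 mice, so animals cannot be told apart and neither genotype has a replicate. The sources used here do not give the strain, the sex or the structure of the mutant allele. Kmt2d itself stood at 34.7 FPKM in wild-type nuclei and 23.5 in Kmt2d +/mut nuclei, which is 67.8% of the wild-type value. The authors' gene table does not call Kmt2d different. Of all genes with at least 1 FPKM on either side, 44.3% were 2-fold or more lower in Kmt2d +/mut, with 1 FPKM added.

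Histone tails carry methyl groups on lysines and arginines, placed by methyltransferases and taken off by demethylases. Methylation of H3K4 (lysine 4 of histone H3) marks active promoters and enhancers, that of H3K36 and H3K79 transcribed gene bodies, and that of H3K9, H3K27 and H4K20 mostly silent or compacted chromatin. Most lysine methyltransferases share a catalytic SET domain, and most demethylases share a JmjC domain that uses iron and oxygen. In neural stem cells the balance of H3K4 and H3K27 methylation is known to bear on the order in which neurogenic genes are switched on. KMT2D is one of several H3K4 methyltransferases, and the comparison of genotypes shows what the transcripts of the other writers and erasers were read at when 1 copy of it was mutant.

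The libraries were shallow, and this sets how each value can be read. FPKM (fragments scaled to transcript length and library size) was above 0 in 5787 genes in the wild-type library and in 5443 in the Kmt2d +/mut library. In genes with 1 annotated transcript, low FPKM values fell on steps, and 80.6% of 98 such values in wild-type and 78.0% of 82 in Kmt2d +/mut were within 0.1 of whole fragments. A single fragment was worth 4.58 FPKM in wild-type nuclei and 4.61 in Kmt2d +/mut nuclei on a shortened transcript length of 1 kb, or about 218000 and 217000 fragments in all if scaling was to the total of each library. Fragment numbers given below are estimates of this kind from the length of the annotated mRNA, with a range where a gene has mRNAs of different length. The intervals are exact binomial 95% intervals of the ratio of estimated fragments, cover counting error only, and compare 2 libraries rather than 2 genotypes. They use the longest annotated mRNA, the top of each fragment range, and would be wider at the bottom of it. Copies made by PCR are counted as fragments, which makes the true error larger.

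**Figure D1:**
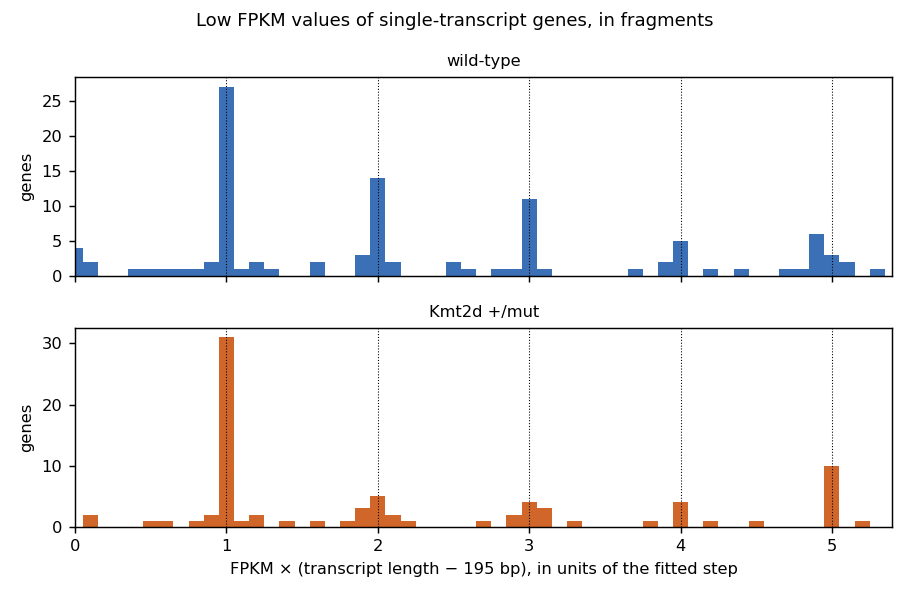
Histograms of low FPKM values of genes with 1 annotated transcript, multiplied by the transcript length less 195 bp and divided by the fitted step (x axis, in fragments; y axis, number of genes), for the wild-type library (top) and the Kmt2d +/mut library (bottom). Values gather at whole numbers of fragments, marked by dotted lines, in both libraries.

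Markers of the cells in the sort were read unevenly, and they are given here once because their part in the differences below was not tested. Of 4 cycling markers all were read in 1 library or the other and summed to 23.1 FPKM in wild-type nuclei and 25.3 in Kmt2d +/mut nuclei, with no common direction. Mki67 stood at 0.913 and 23.1 FPKM and Ccnb1 at a listed 0 and 2.16, while Cdk1 stood at 20.4 and a listed 0 and Top2a at 1.80 and a listed 0. For 5 progenitor markers the sums were 2.61 and 203 FPKM, with Nes listed at 0 in both libraries. The 4 granule neuron markers summed to 431 and 235 FPKM, with Prox1 listed at 0 in both, and the 4 neuron markers to 736 and 656. C1ql2 went against the granule neuron sum, at 161 and 193 FPKM. The lower neuron sum came from Snap25 alone, at 685 and 539 FPKM, while Syt1, Rbfox3 and Tubb3 were each higher in Kmt2d +/mut. Mature oligodendrocyte markers (4 of 5 read, Mog listed at 0 in both) summed to 487 and 1103 FPKM, and precursor markers (4 of 4 read) to 596 and 527. Among the precursor markers Olig2 went against the sum, at a listed 0 and 77.8 FPKM. Microglial markers (3 of 5 read, Cx3cr1 and C1qb at 0 in both) summed to 59.8 and 211 FPKM, and astrocyte markers (3 of 4 read, Aqp4 at 0 in both) to 398 and 479.8. Against these sums went P2ry12 of the microglial markers (40.2 and a listed 0) and Gfap of the astrocyte markers (54.6 and a listed 0). The 3 endothelial markers were listed at 0 in both libraries, and so were the interneuron markers Gad1 and Gad2. In such pooled nuclei, fewer cells of a type and less RNA per cell cannot be told apart.

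Genes of histone methylation were read more often than genes at large, and their readings spread in both directions. Of the 53 genes, 38 (71.7%) were above 0 in at least 1 library, against 33.1% of all genes. All genes here means every named gene of the table, microRNA genes such as Mir678 included. The part of gene type and mRNA length in this difference was not tested. With at least 1 FPKM on either side as the minimum, 37 remained. Those listed at 0 in both libraries were Ash1l, Eed, Ezh1, Kdm3b, Kdm4a, Kdm4d, Prmt1, Prmt3, Setd1a, Setd2, Setd6, Setd8, Setdb2, Suv39h1 and Suv39h2, 15 in all. Dot1l, the H3K79 methyltransferase, was below the minimum at 0.832 FPKM in Kmt2d +/mut, an estimated 1 fragment, and at a listed 0 in wild-type. A listed 0 may also come from an estimate that failed, and it is not taken as absence.

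Measured as log2((Kmt2d +/mut FPKM + 1)/(wild-type FPKM + 1)), 15 of the 37 genes were 2-fold or more higher in Kmt2d +/mut (40.5%, against 40.5% of all 7903 genes over the minimum) and 15 were 2-fold or more lower (40.5%, against 44.3%). Another 7 lay within 2-fold, or 18.9% against 15.3%. All 3 shares were close to those of all genes. The median log2 ratio was -0.16 for the module (0.000923 with both libraries scaled to the same total) and -0.23 for all genes (-0.06). The sign turned for the 13 members with a test by the authors, whose median was 1.56, against -0.21 for all tested genes. These 13 include Nsdhl (6.45), and without it the median would lie between the values of Kmt2e (-1.11) and Prmt10 (1.56). Of the 37, 16 (43.2%) were listed at 0 in 1 library, against 59.7% of all genes. They were 7 listed at 0 in wild-type (18.9%, against 27.8%) and 9 listed at 0 in Kmt2d +/mut (24.3%, against 31.9%). The shortest mRNAs of these 37 genes had a median length of 4539 bases, against 2829 bases for the 7592 genes over the minimum that have one, so that a given FPKM stands for more fragments in the module.

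**Figure D2:**
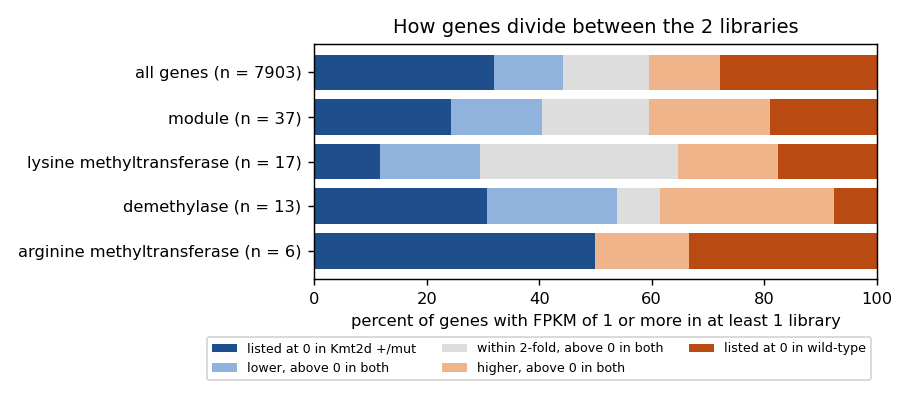
Share of genes (x axis, percent of genes with at least 1 FPKM on either side) listed at 0 in 1 library, at least 2-fold apart or within 2-fold, for all 7903 genes, the 37 module genes and their 3 classes. Lower and higher refer to Kmt2d +/mut against wild-type, and the module divides much as all genes do, with fewer genes listed at 0 in 1 library (43.2% against 59.7%).

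The largest contrasts between the libraries were in genes listed at 0 on one side. The authors' deposited table tested 13 members and calls 6 of them, 46.2% against 27% of all tested genes. All 6 calls fall among the 7 tested members listed at 0 in 1 library, a kind of gene of which the authors' deposited table calls 61.7% over all genes. The same holds over the whole table: all 878 calls are of this kind, and it calls 0 of the 1826 tested genes above 0 in both libraries, whatever their ratio. The calls are 4 genes lower in Kmt2d +/mut, Ehmt1, Kdm8, Prmt2 and Prmt8 (30.8% of the tested members, against 14.3% of all tested genes), and 2 higher, Prmt7 and Nsdhl (15.4%, against 12.8%). That test set 1 library against 1 library. A listed 0 opposite many fragments was common: of all genes with at least 30 estimated fragments in wild-type, 32.3% were listed at 0 in the other library, and 30.7% the other way round. Among the members it was 5 of 11 genes in the first direction (Ehmt1, Kdm5b, Kdm8, Prmt2 and Prmt8) and 3 of 11 in the second (Kdm4c, Nsdhl and Prmt7).

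The promoters of the 5 called genes with a role in methylation are printed here because these genes carry the calls. Each runs 5′ to 3′ on the gene's strand from 250 bases before to 50 bases after a transcription start, from RefSeq on GRCm38.p6 (the assembly behind mm10), with CpG dinucleotides in capitals. Non-methylated CpG is the sequence bound by the CXXC domains of KMT2A, KMT2B, KDM2A and KDM2B.
Ehmt1: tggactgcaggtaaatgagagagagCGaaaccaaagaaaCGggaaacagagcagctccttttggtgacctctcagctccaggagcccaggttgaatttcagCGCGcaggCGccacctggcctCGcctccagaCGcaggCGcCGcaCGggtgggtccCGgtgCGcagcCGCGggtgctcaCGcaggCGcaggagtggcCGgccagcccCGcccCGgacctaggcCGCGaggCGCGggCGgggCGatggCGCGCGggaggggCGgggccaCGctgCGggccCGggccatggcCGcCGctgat
Kdm8: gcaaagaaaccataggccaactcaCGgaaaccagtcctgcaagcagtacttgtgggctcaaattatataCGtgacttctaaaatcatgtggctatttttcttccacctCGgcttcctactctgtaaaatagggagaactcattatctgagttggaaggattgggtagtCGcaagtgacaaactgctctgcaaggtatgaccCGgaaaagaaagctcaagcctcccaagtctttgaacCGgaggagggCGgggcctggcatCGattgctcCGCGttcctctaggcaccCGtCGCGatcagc
Prmt2: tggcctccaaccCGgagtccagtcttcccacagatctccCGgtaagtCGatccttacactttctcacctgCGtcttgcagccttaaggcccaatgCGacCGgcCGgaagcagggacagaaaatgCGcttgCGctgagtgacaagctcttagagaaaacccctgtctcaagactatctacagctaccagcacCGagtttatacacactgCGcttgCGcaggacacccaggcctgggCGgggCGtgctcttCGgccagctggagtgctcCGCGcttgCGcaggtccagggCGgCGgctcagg
Prmt7: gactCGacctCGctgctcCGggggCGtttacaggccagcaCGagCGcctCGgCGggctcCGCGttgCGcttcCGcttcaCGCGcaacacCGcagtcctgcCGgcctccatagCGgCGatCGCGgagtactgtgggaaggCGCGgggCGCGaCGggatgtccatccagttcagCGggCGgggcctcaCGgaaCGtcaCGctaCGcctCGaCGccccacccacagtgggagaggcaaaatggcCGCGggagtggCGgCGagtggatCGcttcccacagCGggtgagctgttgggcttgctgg
Prmt8: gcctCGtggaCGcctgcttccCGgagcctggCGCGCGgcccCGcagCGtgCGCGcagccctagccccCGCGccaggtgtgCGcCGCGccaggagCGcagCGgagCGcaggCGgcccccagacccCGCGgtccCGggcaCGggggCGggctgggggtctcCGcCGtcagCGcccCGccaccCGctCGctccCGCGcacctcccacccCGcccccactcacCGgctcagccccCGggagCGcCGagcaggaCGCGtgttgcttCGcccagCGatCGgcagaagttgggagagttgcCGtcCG
These windows lie at chr2:24919560-24919859 (minus strand), chr7:125444370-125444669 (plus), chr10:76237816-76238115 (minus), chr8:106210804-106211103 (plus) and chr6:127769106-127769405 (minus). They hold 34, 13, 20, 39 and 44 CpG dinucleotides in that order. The RefSeq starts used here can differ from the GENCODE gene coordinates given below, as they do for Kdm8, Prmt7 and Prmt8 and, by a few bases, for Ehmt1. Both the genes called lower and the one called higher have CpG-bearing promoters: of the 28 members over the minimum with a promoter entry, 26 (92.9%) held at least 10 CpG, against 84.8% of 6082 genes over the minimum and 43.9% of all 27025 genes with an entry. The exceptions were Kdm4c with 0 and Setd5 with 1 in the window of the first listed start.

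Genes grouped as H3K4 methyltransferases, the mark of KMT2D, went different ways. Kmt2a, the founding member of the family (mm10, chromosome 9, 44803355 to 44881296, minus strand), gave 16.9 FPKM in wild-type nuclei and 0.563 in Kmt2d +/mut nuclei, an estimated 60 and 2 fragments. Its closest relative Kmt2b (chromosome 7, 30568858 to 30588726, minus strand) was the reverse, with 0.545 FPKM in wild-type nuclei and 21.03 in Kmt2d +/mut nuclei, or 1 and 38 fragments. The ratios were 0.0332 (interval 0.00397 to 0.127) and 38.6 (6.46 to 1550). On the low side both rest on 1 or 2 fragments. Kmt2e, placed in the group by its family name and with a divergent SET domain, was its most abundant member. It stood at 70.9 FPKM in wild-type nuclei and 32.4 in Kmt2d +/mut nuclei. That is 45.7% of the wild-type level on 109 and 50 fragments (interval of the ratio 0.324 to 0.651), and the authors' deposited table does not call it (q-value 0.629). The gene shares 972 bases of exon with Srpk2 on the opposite strand, which stood at a listed 0 and 13.2 FPKM, and reads without strand cannot be told apart there.

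The SET1 enzymes, which place most H3K4 trimethylation in mammalian cells, were thinly read. Setd1b stood at 3.65 FPKM in wild-type nuclei and 6.86 in Kmt2d +/mut nuclei, 7 and 13 fragments, with a ratio of 1.88 whose interval of 0.693 to 5.53 includes 1. Setd1a was listed at 0 in both. Setd7, a monomethyltransferase that also acts on proteins other than histones, stood at 8.19 FPKM in wild-type, 13 fragments, and was listed at 0 in Kmt2d +/mut. Of the 5 H3K4 genes over the minimum, 3 were 2-fold or more lower (60.0%, against 44.3% of all genes) and 1 2-fold or more higher (20.0%, against 40.5%).

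Among H3K9 methyltransferases, a pair of enzymes that work as one complex parted. Ehmt1, which encodes GLP (chromosome 2, 24789928 to 24919614, minus strand), stood at 126 FPKM in wild-type, an estimated 120 to 159 fragments, and was listed at 0 in Kmt2d +/mut. It has the smallest q-value of the module in the authors' deposited table, 0.00308. Ehmt2, which encodes its partner G9a (chromosome 17, 34898469 to 34914052, plus strand), was nearly equal at 15.2 and 14.1 FPKM, with a ratio of 0.929 (interval 0.388 to 2.21). Setdb1, which silences repeats and imprinted genes with the KAP1 corepressor, stood at 43.9 FPKM in wild-type nuclei and 2.07 in Kmt2d +/mut nuclei. That is 4.71% of the wild-type level, from an estimated 42 to 43 fragments and 2 fragments (interval of the ratio 0.00549 to 0.18). The exons of Setdb1 and Cers2, which lies on the opposite strand, share 75 bases, and Cers2 stood at a listed 0 in wild-type and 318 FPKM in Kmt2d +/mut. Suv39h1, Suv39h2 and Setdb2, the other members of this group, were listed at 0 in both libraries. Of the 3 H3K9 genes that were read, 2 were 2-fold or more lower (66.7%, against 44.3% of all genes), 1 was within 2-fold and 0 were 2-fold or more higher (40.5% of all genes).

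H3K27 methylation is the work of Polycomb repressive complex 2 (PRC2), and of its 4 catalytic and core members in the module Ezh2 and Suz12 were read, both in the Kmt2d +/mut library alone. Ezh2, the catalytic subunit of dividing cells (chromosome 6, 47530139 to 47595341, minus strand), stood at 50.6 FPKM in Kmt2d +/mut, an estimated 28 fragments, with a listed 0 for wild-type. It was tested without a call in the authors' deposited table (q-value 0.369). Suz12, a core scaffold of the complex, stood at 14.5 FPKM in Kmt2d +/mut, 13 fragments, against a listed 0. The wild-type value was likewise 0 for 27.8% of all genes that reach the minimum. A 2-fold or larger rise in Kmt2d +/mut, which both genes show, was found in 40.5% of them. Eed, the subunit that binds trimethylated H3K27, and Ezh1, the catalytic subunit of non-dividing cells, were listed at 0 in both. The progenitor markers were also higher in Kmt2d +/mut (2.61 and 203 FPKM in sum), while of the cycling markers 2 were higher and 2 lower (23.1 and 25.3 FPKM in sum). Their part in the Ezh2 and Suz12 readings was not tested.

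Of 7 further subunits of PRC2 outside the module, core or accessory, 4 were read in both libraries. The other 3 (42.9%, against 59.7% of all genes) were listed at 0 in 1. Rbbp4, a histone chaperone shared with other complexes, stood at 52.6 FPKM in wild-type nuclei and 53.3 in Kmt2d +/mut nuclei, and Aebp2 at 35.7 and 51.0. Mtf2, which guides PRC2 to CpG islands, stood at 50.2 and 26.1 FPKM. Rbbp7, the close relative of Rbbp4, stood at 78.5 FPKM in wild-type nuclei against a listed 0 in Kmt2d +/mut nuclei. Phf19 and Jarid2 were the reverse, at a listed 0 in wild-type and at 28.4 and 8.36 FPKM in Kmt2d +/mut. Of the 7 genes on this list, 2 were 2-fold or more higher (28.6%, against 40.5% of all genes), 1 2-fold or more lower (14.3%, against 44.3%) and 4 within 2-fold (57.1%, against 15.3%). The authors' deposited table calls 0 of the 4 it tested, against 27% of all tested genes, and only Rbbp7 among the 4 was listed at 0 in 1 library.

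Of the 4 writers of H3K36 methylation in the module 2 were read, both within 2-fold on the scale with 1 FPKM added. So were 15.3% of all genes over the minimum and 37.9% of those above 0 in both libraries. The writers of H4K20 methylation rested on few fragments. Nsd1, a dimethyltransferase of H3K36, stood at 11.1 FPKM in wild-type nuclei and 9.80 in Kmt2d +/mut nuclei, with 31 and 27 fragments and a ratio of 0.883 (interval 0.503 to 1.52). Whsc1, now named Nsd2, stood at 11.3 and 5.42 FPKM, a ratio of 0.481 without the added FPKM. It rests on 11 to 19 and on 5 to 9 fragments, and its interval (0.19 to 1.11) includes 1. The H3K36 trimethylating enzyme Setd2 and the H3K36 enzyme Ash1l were listed at 0 in both. Suv420h1 (Kmt5b) stood at 1.55 and 0.787 FPKM, no more than 2 fragments in either library, and Suv420h2 (Kmt5c) at a listed 0 and 4.63 FPKM, 2 to 3 fragments. Setd8 (Kmt5a), the H4K20 monomethyltransferase of the cell cycle, was listed at 0 in both.

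Of the other SET domain genes, 1 differed widely. Setd5, a chromatin regulator whose loss of function causes intellectual disability in people (chromosome 6, 113077365 to 113153435, plus strand), stood at 11.5 FPKM in wild-type nuclei and 99.1 in Kmt2d +/mut nuclei. On an estimated 16 and on 136 to 141 fragments the ratio was 8.61 (interval 5.28 to 15.9), and the authors' deposited table gives it a q-value of 0.574 and no call. Setd3, a histidine methyltransferase of actin, stood at 3.58 and 9.06 FPKM, 2 and 5 fragments, with an interval of 0.412 to 26.4. Setd4 stood at 25.04 and 14.1 FPKM, 9 and 5 fragments, with an interval of 0.147 to 1.86. Over the 17 lysine methyltransferase genes above the minimum, 6 were 2-fold or more higher (35.3%, against 40.5% of all genes), 5 2-fold or more lower (29.4%, against 44.3%) and 6 within 2-fold (35.3%, against 15.3%). Their median log2 ratio was -0.16, but the 4 with a test by the authors had a median of 0.95, with the sign turned.

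**Figure D3:**
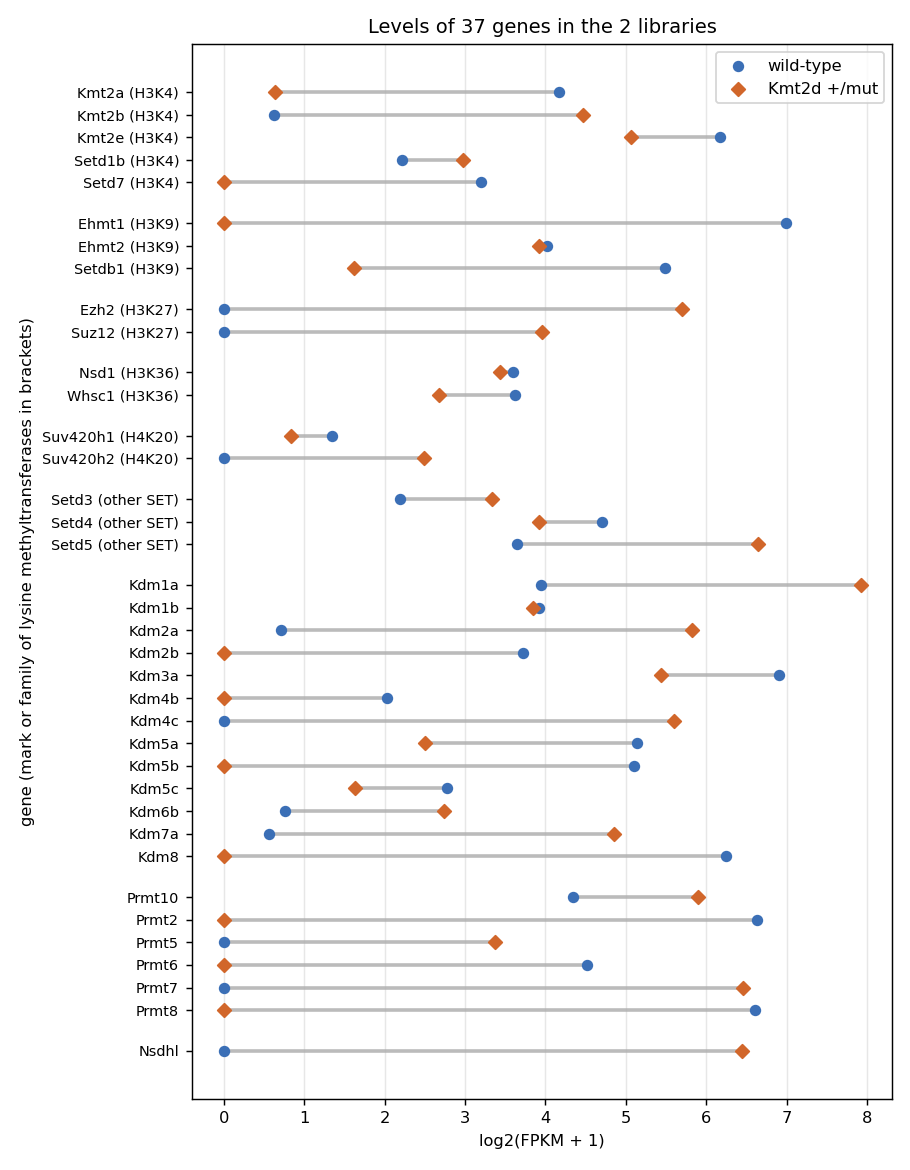
Level of each of the 37 module genes above the minimum in the wild-type library (blue circles) and the Kmt2d +/mut library (orange diamonds), as log2(FPKM + 1) (x axis), with 1 line per gene grouped by class and, for lysine methyltransferases, by mark. Points at 0 are genes listed at 0, and the connecting grey lines run in both directions, from Ehmt1 at 126 FPKM against 0 to Kdm1a at 14.4 against 241.

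Demethylases held the highest single reading of the module. Kdm1a, or LSD1, a flavin-dependent demethylase of mono- and dimethylated H3K4 that neural progenitors need to divide (chromosome 4, 136550540 to 136602723, minus strand), stood at 14.4 FPKM in wild-type nuclei and 241 in Kmt2d +/mut nuclei. With an estimated 9 and 147 to 148 fragments the ratio was 16.7 (interval 8.49 to 36.9). The authors' deposited table does not call it (q-value 0.582). Kdm1b, the other flavin-dependent enzyme, was nearly equal at 14.1 and 13.4 FPKM, 15 and 14 fragments, a ratio of 0.946 (interval 0.42 to 2.09). Its exons share 505 bases with Dek on the opposite strand, which stood at a listed 0 and 68.6 FPKM.

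The 3 KDM5 family genes kept by the rule, which take off di- and trimethylation of H3K4, were 2-fold or more lower in Kmt2d +/mut. Kdm5a stood at 34.3 FPKM in wild-type nuclei and 4.67 in Kmt2d +/mut nuclei, an estimated 81 and 11 fragments, which is 13.6% of the wild-type level (interval of the ratio 0.0656 to 0.258). Kdm5b stood at 33.3 FPKM in wild-type, 62 fragments, and was listed at 0 in Kmt2d +/mut. Kdm5c, an X-linked gene mutated in a form of intellectual disability in people, stood at 5.84 and 2.11 FPKM, but its 8 and 3 fragments give an interval of 0.0645 to 1.57 that includes 1. The authors' deposited table tested none of the 3 genes, and 2-fold or more lower values were found in 44.3% of all genes. Kdm6a, which belongs to the KMT2D complex and was left out of the module by its rule, stood at 33.8 and 8.12 FPKM, 24.0% of the wild-type level.

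Demethylases of H3K36, which include the CXXC protein KDM2A, split by gene. Kdm2a stood at 0.638 FPKM in wild-type nuclei and 55.6 in Kmt2d +/mut nuclei, 1 and 85 fragments, a ratio of 87.2 whose interval runs from 14.9 to 3419. It is not called in the authors' deposited table (q-value 0.574). Kdm2b, which brings a Polycomb complex to CpG islands, stood at 12.2 FPKM in wild-type, 9 to 13 fragments, and was listed at 0 in Kmt2d +/mut. In the KDM4 family, whose enzymes act on trimethylated H3K9 and H3K36, Kdm4c stood at a listed 0 and 47.3 FPKM, 41 fragments, and Kdm4b at 3.07 FPKM, 3 fragments, and a listed 0. Kdm4a and Kdm4d were listed at 0 in both.

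Demethylases of H3K9 and H3K27 also ran both ways. Kdm3a, an H3K9 demethylase induced by low oxygen (chromosome 6, 71588972 to 71632990, minus strand), stood at 119 FPKM in wild-type nuclei and 42.5 in Kmt2d +/mut nuclei. It was the demethylase with the highest wild-type value, and its estimated 118 to 121 and 42 to 43 fragments give a ratio of 0.357 (interval 0.246 to 0.51). The authors' deposited table does not call it (q-value 0.606). Kdm6b, or JMJD3, a demethylase of H3K27, stood at 0.7 and 5.67 FPKM, 1 and 8 fragments, with a ratio of 8.11 (interval 1.08 to 357). Kdm7a, which acts on dimethylated H3K9 and H3K27, stood at 0.482 and 27.8 FPKM, 1 and 57 fragments, with a ratio of 57.8 (interval 9.89 to 2305). The wild-type value of each of these 2 genes rests on an estimated 1 fragment.

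Kdm8, a JmjC domain oxygenase (chromosome 7, 125444676 to 125462269, plus strand), stood at 74.5 FPKM in wild-type, 36 fragments, and was listed at 0 in Kmt2d +/mut. It is called lower in the authors' deposited table with a q-value of 0.029, the only demethylase among the calls. Over the 13 demethylases above the minimum, 7 were 2-fold or more lower (53.8%, against 44.3% of all genes), 5 2-fold or more higher (38.5%, against 40.5%) and 1 within 2-fold (7.69%, against 15.3%). Their median log2 ratio was -1.14, but over the 8 that were above 0 in both libraries it was 0.95, in the opposite direction.

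Arginine methyltransferases were read on 1 side only, with 1 exception. Prmt2, a coactivator of nuclear receptors (chromosome 10, 76207222 to 76237865, minus strand) stood at 98.0 FPKM in wild-type, an estimated 40 to 41 fragments, and was listed at 0 in Kmt2d +/mut. Prmt8, a membrane-bound enzyme found mainly in the brain (chromosome 6, 127689011 to 127769472, minus strand), stood at 95.9 FPKM, 53 fragments, against a listed 0. Prmt6, which methylates arginine 2 of histone H3 and so opposes H3K4 trimethylation, stood at 21.8 FPKM, 11 fragments, against a listed 0. These 3 genes were therefore read in wild-type alone, and the authors' deposited table calls Prmt2 and Prmt8 lower (q-value 0.029 for each). The exons of Prmt6 share 984 bases with an annotated antisense gene, and reads without strand cannot be told apart there.

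Read in Kmt2d +/mut alone were Prmt7, an enzyme that only monomethylates (chromosome 8, 106210936 to 106252794, plus strand), and Prmt5, the main symmetric dimethyltransferase. Prmt7 stood at 86.9 FPKM, 62 fragments, and is called higher in the authors' deposited table (q-value 0.029). It shares 247 bases of exon with Smpd3 on the opposite strand, which stood at 2.74 and 31.4 FPKM. Prmt5 stood at 9.38 FPKM, 5 fragments. The exception was Prmt10, now named Prmt9, a methyltransferase of a splicing factor, at 19.2 FPKM in wild-type nuclei and 58.5 in Kmt2d +/mut nuclei. Its ratio was 3.04 (interval 1.49 to 6.62), and the authors' deposited table leaves it uncalled (q-value 0.631). Prmt1, which makes most asymmetric dimethylarginine, and Prmt3 were listed at 0 in both. Of 6 arginine methyltransferases over the minimum, 5 (83.3%) were listed at 0 in 1 library, against 59.7% of all genes.

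**Figure D4:**
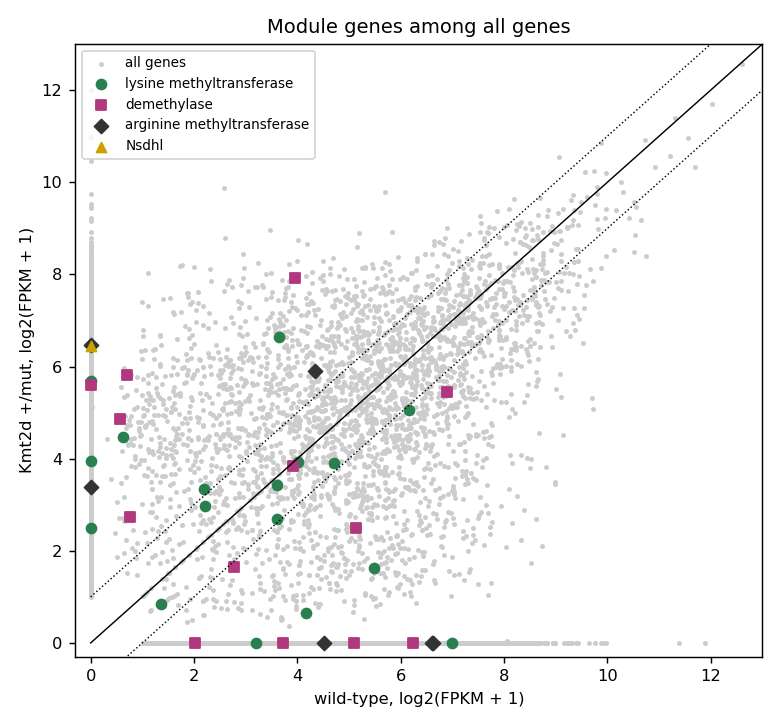
Level in Kmt2d +/mut (y axis) against wild-type (x axis), both as log2(FPKM + 1), for all 7903 genes over the minimum (grey) and the module genes by class. The solid line marks equal values and the dotted lines a 2-fold difference on this scale, and the module genes lie in the cloud of all genes, with 16 of 37 on the axes at a listed 0.

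Nsdhl, the sterol enzyme taken in by its name, stood at a listed 0 in wild-type and 86.2 FPKM in Kmt2d +/mut, 37 fragments, and is among the calls of the authors' deposited table (q-value 0.029). It is on the X chromosome (72918557 to 72958514, plus strand). Leaving it out gives 14 higher and 15 lower genes of 36, and a median log2 ratio of -0.34.

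Genes read on both sides spread widely, in the module as among all genes. Of the 21 members above 0 in both libraries, 8 were 2-fold or more higher (38.1%, against 31.5% of all such genes), 6 2-fold or more lower (28.6%, against 30.6%) and 7 within 2-fold (33.3%, against 37.9%). The counting interval excluded 1 in 12 of the 21 (57.1%), against 67.2% of 3092 genes above 0 in both that have an mRNA length. It lay above 1 in 7 (33.3%, against 33.9%) and below 1 in 5 (23.8%, against 33.2%). These shares describe 2 libraries and are no count of genes that differ between genotypes. In 9 of the 21 the library with the lower value had an estimated 3 fragments or fewer, and in 5 of those it had 1.

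Genes of histone methylation outside the naming rule also divided in both directions. Of 19 further writers and erasers, 8 were over the minimum, of which 3 were 2-fold or more higher (37.5%, against 40.5% of all genes), 4 2-fold or more lower (50%, against 44.3%) and 1 within 2-fold (12.5%, against 15.3%). The authors' deposited table tested none of them. Jmjd1c, a JmjC protein related to KDM3A, stood at 30.001 FPKM in wild-type nuclei and 14.5 in Kmt2d +/mut nuclei, and Smyd4 at 21.8 and 2.76. Whsc1l1, which encodes the H3K36 methyltransferase NSD3, stood at a listed 0 and 19.8 FPKM, and the JmjC protein gene Jmjd6 at 18.5 and a listed 0. The list's median log2 ratio was -1.80, against -0.23 for all genes.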

How the data were processed

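RNA from sorted nuclei was amplified by a modified Smart-seq2 protocol (22 cycles of cDNA amplification, 20 of enrichment), per the labels' protocols. The submitters' processing notes name HISAT2, Cuffnorm, Cuffdiff and build mm10; the sources used here do not give versions, annotation or the handling of reads that match several places. Values are the FPKM that the authors deposited per gene for pairs of 6 libraries, beside which stand a p-value and a q-value from a test by the authors, copied as deposited. The other 4 libraries were not used. Of 24346 entries, 27 had a date for a name and were left out.

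Ratios used log2(FPKM + 1), which understates differences of low genes, over genes reaching 1 FPKM on either side. With 1 library per genotype no test was made. Transcript lengths and coordinates came from GENCODE M21 (mm10), which held all 53 genes, 5 under newer symbols. For fragments, 195 bp was taken off each length, and the fit was tested on simulated data. Python 3.11.15 and SciPy 1.17.1 were used. Every member over the minimum is described, and 1 marker gene is not reported here. The members and lists were chosen with earlier results of these data known. Alternatives varied the pseudocount, minimum, scaling and gene set.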

Additional observations from a re-analysis of the deposited data

How the results depend on the processing

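The counts of genes at least 2-fold higher and lower (15 each) stayed within 1.5 times under the other pseudocount, minimum and scaling settings, and fell to 8 and 6 among genes above 0 in both libraries and to 7 and 6 among those the authors tested, where fewer genes remain by construction. The median log2 ratio of the module (-0.16) was 1.56 among genes the authors tested, Nsdhl included, and 0.000923 with each library scaled to the same total. Over the main gene set it was -0.34 without Nsdhl, an alternative chosen after seeing the data. For lysine methyltransferases (-0.16) it was 0.95 among tested genes, 0.000923 with equal totals and -0.34 above 0 in both. For demethylases (-1.14) it was -1.42 with a pseudocount of 0.1, -0.60 with a minimum of 5, 0.95 above 0 in both and 1.25 among tested genes. For arginine methyltransferases (-1.48) it was -3.09 with a pseudocount of 0.1, 1.56 above 0 in both (1 gene), -2.52 among tested genes and -1.95 with equal totals. Equal totals moved the median of all genes from -0.23 to -0.06 and turned the sign of Ehmt2 to 0.073, Kdm1b to 0.10 and Nsd1 to 0.000923, and took Kmt2e (-0.94) and Setd1b (1.01) across the 2-fold limit. The pseudocount of 0.1 took Whsc1 across it. The cause of these shifts was not tested. No paired analysis was possible because each genotype has 1 library. Depth limits low values: 1 fragment decides several ratios.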

Other observations

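Genes whose proteins read histone methylation, which bind the marks that the enzymes above place, also divided in both directions. Of 25 readers, 17 were over the minimum, with 7 of them 2-fold or more higher in Kmt2d +/mut (41.2%, against 40.5% of all genes), 9 lower by 2-fold or more (52.9%, against 44.3%) and 1 within 2-fold. Bptf, a subunit of a nucleosome remodeller that binds trimethylated H3K4, stood at 4.39 FPKM in wild-type nuclei and 87.0 in Kmt2d +/mut nuclei. Cbx5, or HP1 alpha, which binds methylated H3K9, stood at 52.4 and 2.66 FPKM. Uhrf1, which links H3K9 methylation to the copying of DNA methylation, stood at 52.2 and 4.28 FPKM. Trp53bp1, a DNA damage protein that binds dimethylated H4K20, stood at 84.6 and 34.5 FPKM. These 4 are the readers that the authors' deposited table tested. All were above 0 in both libraries, a kind of gene of which it calls 0 of 1826, against 27% of all tested genes.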
